A study of Homo sapiens with 15 samples.

Results

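The 8 genes described here make and store lipid: PLIN2 coats lipid droplets, HMGCS1, IDI1, FDFT1 and SQLE are enzymes of sterol synthesis, INSIG1 is a sterol sensor, and SCD and FASN make fatty acids. They were taken by name from the gene count table, which holds 50037 genes, 19972 of them protein-coding. Sterol and fatty acid synthesis are switched on together by the sterol regulatory element binding proteins (SREBPs), membrane-bound transcription factors that are held in the endoplasmic reticulum by SCAP and INSIG proteins while sterol is plentiful and are released when it runs low. Fatty acids that reach a cell in excess are esterified and stored in droplets whose surface is covered by perilipins, and PLIN2 is widely used as a mark of that storage in macrophages and other cells that take up lipoprotein. Fatty acids also induce PLIN2 through the peroxisome proliferator-activated receptors (PPARs).

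Small RNA was sequenced from 15 libraries in 3 groups of 5. In the GKT136901+LPL:VLDL group the cells received GKT136901 at 20 µM, which blocks NOX1 and NOX4, enzymes that make reactive oxygen species, together with the lipid products that lipoprotein lipase (LPL) releases from very low-density lipoprotein (VLDL). The LPL:VLDL group received those products without the inhibitor, and the pcDNA:VLDL group, whose plasmid name is not explained in the labels, received VLDL. All groups were incubated for 18 h, carried a wild-type genotype and came from 5 culture experiments, numbered 2 to 6 in the labels' batch field, with 1 library of each group per experiment. The labels do not say how the dishes within an experiment relate, so p-values cover library-to-library spread, which may be technical.

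Libraries held 5076917 to 9757123 counts, and protein-coding genes took 1.09% of them, so each mRNA was seen as a small number of short fragments. The cells are labelled HEK-293, a human embryonic kidney line, whereas the title names macrophages. Of 18 myeloid marker genes 16 had counts, with AIF1 and C1QA at 0. The annotation holds 5 additional copies of AIF1, a limit explained below for FDFT1, so its 0 is not a measured absence. CSF1R, ITGB2, SPP1 and LAPTM5 had 935 to 1771 counts each in all, while CD68, PTPRC, CD14, LYZ, MRC1 and CD163 had 3 to 61. Marker levels are given in CPM (counts scaled to library size corrected by the TMM factors explained below). The summed myeloid level was 28.3 to 69.0 CPM in GKT136901+LPL:VLDL, 35.9 to 94.2 in LPL:VLDL and 42.0 to 80.1 in pcDNA:VLDL libraries. Of 15 HEK-293 markers 10 had counts, with KRT8, KRT18, NEFM, LIN28B and MYCN at 0, and their sum was 1.00 to 2.86 CPM in GKT136901+LPL:VLDL, 0.985 to 3.05 in LPL:VLDL and 1.04 to 4.57 in pcDNA:VLDL libraries. HMGA2 had 262 counts in all, and no other HEK-293 marker had more than 8. The summed markers therefore went against the cell line label, though each sum rested on few genes. The 3 libraries of experiment 2 stood apart from the other 12: their mRNA share was 1.36 to 1.62%, against 0.768 to 1.08% in experiments 3 to 6, and their myeloid marker sum was 69.0 to 94.2 CPM, against 28.3 to 58.0 CPM. Differences between treatments and the paired sums are given with and without them.

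All levels below are CPM scaled with TMM factors (trimmed mean of M-values, which correct for the few RNAs that dominate a library), and the intervals of single counts cover counting error only. Of the 8 genes 7 had at least 443 counts in all and were tested. FDFT1, squalene synthase (chromosome 8: 11795582 to 11839298, hg38), had 1 count in 15 libraries. The annotation used for counting holds an additional copy of FDFT1 on an alternate scaffold, and of the 1660 protein-coding genes with such a copy 9.40% had any count, against 75.1% of the 18312 genes without one. No level of FDFT1 can therefore be read from these counts.

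Per kilobase of exon, mean fragment levels over the 15 libraries were 2.55 ± 1.26 CPM per kb for PLIN2, 2.06 ± 0.466 for IDI1, 1.16 ± 0.529 for INSIG1, 1.04 ± 0.525 for SQLE, 0.727 ± 0.452 for SCD, 0.635 ± 0.528 for HMGCS1 and 0.370 ± 0.266 for FASN (SD, n = 15). IDI1 and INSIG1 were farther apart than the SD of either, and the other neighbours in that order differed by less than the larger SD of the pair. The spread between libraries was widest for HMGCS1, with a coefficient of variation of 83.1%, followed by FASN at 71.9% and SCD at 62.1%. IDI1 varied least, at 22.6%, while counting alone would give 11.1% for IDI1 and 17.2% for HMGCS1 at their mean counts.

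The promoters of HMGCS1 and SCD, which were high in the same libraries, and of PLIN2, which was not, are shown as the 250 bases before each start, 5′ to 3′ (RefSeq, GRCh38.p14), since the SREBPs act at promoters together with the CCAAT-binding factor NF-Y. They lie at chr5:43313413-43313662 on the minus strand for HMGCS1, chr10:100346983-100347232 on the plus strand for SCD and chr9:19127493-19127742 on the minus strand for PLIN2. Capitals mark CCAAT (searched on both strands) and the E-box CACGTG.
HMGCS1: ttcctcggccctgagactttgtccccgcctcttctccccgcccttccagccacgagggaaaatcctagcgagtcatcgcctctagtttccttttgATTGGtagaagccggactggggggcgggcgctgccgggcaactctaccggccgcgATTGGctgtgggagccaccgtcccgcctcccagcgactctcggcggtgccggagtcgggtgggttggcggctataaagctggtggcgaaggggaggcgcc
SCD: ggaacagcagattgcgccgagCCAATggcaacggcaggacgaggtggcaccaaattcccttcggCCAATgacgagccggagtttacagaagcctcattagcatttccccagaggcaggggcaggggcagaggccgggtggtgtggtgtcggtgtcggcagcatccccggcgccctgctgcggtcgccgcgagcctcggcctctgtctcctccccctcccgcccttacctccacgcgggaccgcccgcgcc
PLIN2: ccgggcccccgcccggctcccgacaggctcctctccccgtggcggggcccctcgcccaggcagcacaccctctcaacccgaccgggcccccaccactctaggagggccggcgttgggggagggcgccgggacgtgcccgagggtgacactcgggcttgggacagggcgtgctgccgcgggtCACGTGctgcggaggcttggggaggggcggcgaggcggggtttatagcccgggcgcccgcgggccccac
CCAAT occurred 2 times in the HMGCS1 window and 2 times in the SCD window, on opposite strands, and 0 times in the PLIN2 window. A later start of HMGCS1 in the table had 0 in its window. The 3 starts of IDI1, which with TMM scaling was lowest in experiment 2 in every group, had 0, 3 and 2. The motif thus did not separate the genes that were high in experiment 2 from the others. Among all 35116 promoters of this length in the table, 32% held this motif. The E-box occurred 1 time in the PLIN2 window and 1 time in that of INSIG1, and in 6.34% of all promoters. The sterol element searched as TCACNCCAC was in none of these windows and in 0.883% of all promoters. The table held promoters for 5 of the 8 genes, and these matches describe letters only.

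PLIN2 (chromosome 9: 19108388 to 19127492, minus strand) had 24 to 104 counts per library. In the GKT136901+LPL:VLDL group its level was 2.90, 6.64, 2.71, 6.74 and 2.75 CPM in experiments 2 to 6. In the LPL:VLDL group it was 5.47, 3.74, 5.44, 11.4 and 10.7 CPM. In the pcDNA:VLDL group it was 5.19, 3.67, 4.07, 10.4 and 7.95 CPM. The libraries of experiments 5 and 6 were the highest of the LPL:VLDL and pcDNA:VLDL groups, those of experiments 3 and 5 the highest with GKT136901, and all 3 groups overlapped. Experiment 3 was the 1 experiment in which PLIN2 was higher with GKT136901 than without it, and its GKT136901+LPL:VLDL library is the shallowest of the series, with 33 PLIN2 fragments and a counting interval of 4.57 to 9.32 CPM.

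**Figure D1:**
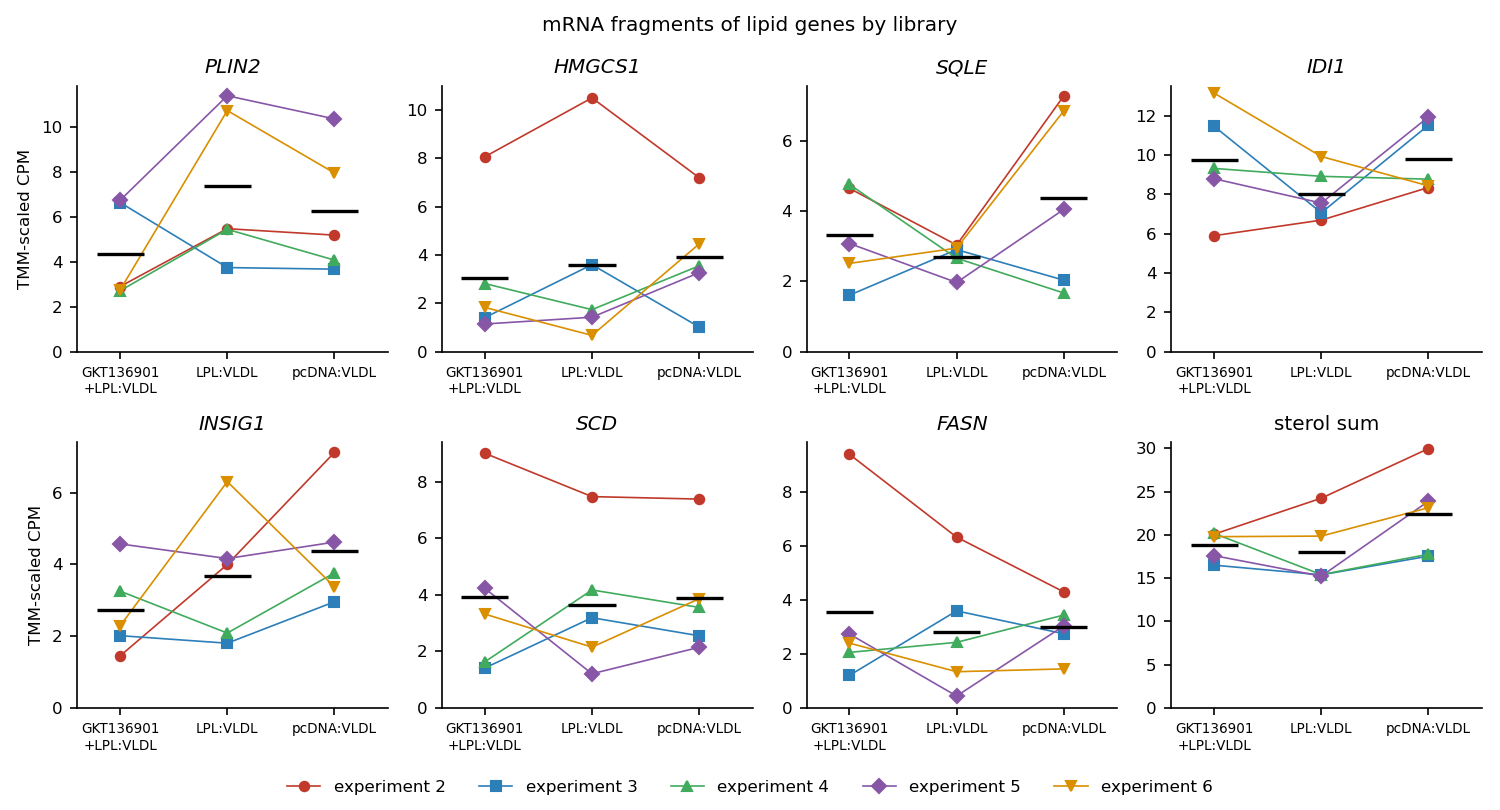
Level of the 7 tested genes and of the summed sterol genes (SQLE, INSIG1, HMGCS1, IDI1 and FDFT1) in each library, in TMM-scaled CPM, with the 3 groups on the horizontal axis. Points of 1 experiment share a colour and are joined, and black bars are group means. HMGCS1, SCD and FASN are highest in experiment 2 in every group, while PLIN2 with GKT136901 is below PLIN2 in the other groups in 4 of 5 experiments.

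HMGCS1 (chromosome 5: 43287470 to 43313412, minus strand) makes HMG-CoA, a precursor of mevalonate. Its level was 8.07, 1.41, 2.82, 1.14 and 1.83 CPM in GKT136901+LPL:VLDL libraries of experiments 2 to 6. It was 10.5, 3.60, 1.74, 1.42 and 0.671 CPM in LPL:VLDL libraries, and 7.21, 1.02, 3.55, 3.27 and 4.46 CPM in pcDNA:VLDL libraries. Within every group the experiment 2 library was the highest, at 7.21 CPM or more, and no library of experiments 3 to 6 was above 4.46 CPM.

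IDI1 (chromosome 10: 1039152 to 1056704, minus strand) interconverts the isoprene building blocks made from mevalonate, and it gave the most fragments of the set, 1208 in all. Its level was 5.90, 11.5, 9.32, 8.79 and 13.2 CPM in GKT136901+LPL:VLDL libraries, 6.69, 7.06, 8.92, 7.56 and 9.93 CPM in LPL:VLDL libraries and 8.35, 11.5, 8.77, 11.9 and 8.43 CPM in pcDNA:VLDL libraries. With TMM scaling the experiment 2 library was the lowest of each group. Scaled by library size alone, that of LPL:VLDL was the highest of its group, at 8.92 CPM. That of pcDNA:VLDL, at 10.9 CPM, was then within the range of its group. Of the exonic bases of IDI1 12.4% are shared with exons of IDI2-AS1 and WDR37. Counting was without strand and without a setting for shared exons, so fragments of such bases were left out of the count.

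SQLE (chromosome 8: 124998505 to 125022283), squalene epoxidase, catalyses a rate-limiting step after squalene. Its level was 4.66, 1.61, 4.77, 3.08 and 2.52 CPM in GKT136901+LPL:VLDL libraries, 3.04, 2.91, 2.66, 1.97 and 2.95 CPM in LPL:VLDL libraries and 7.29, 2.04, 1.67, 4.06 and 6.87 CPM in pcDNA:VLDL libraries. The LPL:VLDL libraries were close to each other and lay inside the range of the pcDNA:VLDL libraries, whose experiments 2 and 6 were the highest of all 15.

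INSIG1 (chromosome 7: 155297878 to 155310235) holds the SREBP–SCAP complex in the endoplasmic reticulum and is itself an SREBP target. Its level was 1.45, 2.01, 3.25, 4.57 and 2.29 CPM in GKT136901+LPL:VLDL libraries, 4.00, 1.80, 2.08, 4.16 and 6.30 CPM in LPL:VLDL libraries and 7.12, 2.96, 3.76, 4.62 and 3.37 CPM in pcDNA:VLDL libraries. Every experiment had a lower value in its GKT136901+LPL:VLDL than in its pcDNA:VLDL library, with 4.57 against 4.62 CPM in experiment 5, and the groups overlapped. Exons of a neighbouring divergent transcript and of another non-coding gene share 15.7% of its exonic bases.

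SCD (chromosome 10: 100347233 to 100364826), stearoyl-CoA desaturase, makes monounsaturated fatty acids. Its level was 9.001, 1.41, 1.63, 4.23 and 3.32 CPM in GKT136901+LPL:VLDL libraries, 7.47, 3.19, 4.17, 1.20 and 2.15 CPM in LPL:VLDL libraries and 7.38, 2.55, 3.55, 2.14 and 3.86 CPM in pcDNA:VLDL libraries. FASN (chromosome 17: 82078338 to 82098236, minus strand), fatty acid synthase, makes palmitate. Its level was 9.42, 1.21, 2.06, 2.74 and 2.40 CPM in GKT136901+LPL:VLDL libraries, 6.34, 3.60, 2.43, 0.438 and 1.34 CPM in LPL:VLDL libraries and 4.31, 2.75, 3.45, 3.04 and 1.45 CPM in pcDNA:VLDL libraries. Both genes were highest in the experiment 2 library of every group. The lowest FASN value, in LPL:VLDL experiment 5, rests on 4 fragments, with a 95% exact Poisson interval of 0.119 to 1.12 CPM.

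The comparison of LPL:VLDL with pcDNA:VLDL asks what lipolysis of VLDL adds to VLDL itself. PLIN2 averaged 7.35 ± 3.46 CPM in LPL:VLDL and 6.25 ± 2.84 CPM in pcDNA:VLDL libraries (SD, n = 5 each) and was higher in 5 of 5 experiments, with log2 ratios of 0.071, 0.024, 0.38, 0.13 and 0.41 in experiments 2 to 6. The summed sterol genes averaged 18.0 ± 3.99 CPM in LPL:VLDL and 22.5 ± 5.13 CPM in pcDNA:VLDL libraries and were lower in 5 of 5 experiments, with log2 ratios of −0.30, −0.18, −0.20, −0.63 and −0.22 and a mean of −0.31 ± 0.19. Without IDI1 the sterol sum was lower in 4 of 5 experiments, with a ratio of 0.44 in experiment 3 and a mean of −0.29 ± 0.42. The 2 fatty acid genes summed to 6.47 ± 4.64 and 6.89 ± 2.78 CPM in LPL:VLDL and pcDNA:VLDL libraries, with ratios above 0 in experiments 2 and 3 and below 0 in the other 3. Over experiments 3 to 6 the mean ratio was −0.31 ± 0.22 for the sterol sum, −0.42 ± 0.75 for the fatty acid sum and 0.24 ± 0.19 for PLIN2. The sums are descriptions without a test, since the genes were chosen with earlier results of these data known, and in bulk RNA fewer cells of a type and less RNA per cell cannot be told apart.

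No single gene of the set passed the test in that comparison. By edgeR's quasi-likelihood test over 4099 genes, 0 of 7 had an adjusted p under 0.05, where the background was 0% of all genes, and 0 of 7 had an unadjusted p under 0.05, where the background was 1.88%. With experiment as a block the same counts were 0 and 0 of 7, beside 0.0244% and 4.2% of all genes. DESeq2 and limma voom, with and without the block, also passed 0 of 7 in each of the 3 comparisons. In this one SQLE had an unadjusted p under 0.05 by limma voom with the block, and no gene of the set had one in the other fits of these tools. The log2 difference of LPL:VLDL over pcDNA:VLDL was 0.24 ± 0.39 (SE) for PLIN2 and −0.69 ± 0.43 for SQLE, the gene with the lowest p of the set (adjusted p = 0.999, edgeR). It was −0.25 for INSIG1, −0.29 for IDI1, −0.10 for HMGCS1, −0.093 for SCD and −0.075 for FASN. PLIN2 was thus 1 of 7 genes higher in 5 of 5 experiments, beside 3.44% of all tested genes, and none was lower in all 5, beside 3.46%. Scaled by library size alone, PLIN2 was higher in 4 of 5 experiments, with a mean log2 ratio of 0.073, and the sterol sum was lower in 5 of 5, with a mean of −0.45. Without the libraries of experiment 2 the difference was 0.24 for PLIN2, −0.51 for SQLE, −0.068 for INSIG1 and −0.31 for IDI1. It was −0.77 ± 0.55 for HMGCS1, −0.50 ± 0.54 for FASN and −0.21 for SCD, each farther from 0 than with experiment 2, and 0 of 7 passed.

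The comparison of GKT136901+LPL:VLDL with LPL:VLDL asks what NOX1/4 inhibition changes in cells given lipolysis products. PLIN2 averaged 4.35 ± 2.14 CPM in GKT136901+LPL:VLDL and 7.35 ± 3.46 CPM in LPL:VLDL libraries and was lower in 4 of 5 experiments, with log2 ratios of −0.81, 0.75, −0.89, −0.72 and −1.79. Its fitted log2 difference was −0.77 ± 0.40 (adjusted p = 1.00, edgeR). Of the 7 genes 0 passed, beside 0% of all genes, and 0 had an unadjusted p under 0.05, beside 2.12% of all genes. With experiment as a block the PLIN2 difference was −0.74 ± 0.31 (adjusted p = 1.00, edgeR), and PLIN2 was the 1 gene of 7 with an unadjusted p under 0.05, beside 3.68% of all genes. That was also so with the block in DESeq2 and in limma voom, and none of these fits called it after adjustment. Without experiment 2 the PLIN2 difference was −0.74 ± 0.44, and 0 of 7 passed.

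The summed sterol genes averaged 18.8 ± 1.68 CPM in GKT136901+LPL:VLDL and 18.0 ± 3.99 CPM in LPL:VLDL libraries, with log2 ratios of −0.27, 0.10, 0.38, 0.20 and −0.0048, a mean of 0.081 ± 0.24. Leaving IDI1, the most abundant of them, out of the sum gave a mean of −0.13 ± 0.57, so the direction turned with that gene. The fatty acid genes summed to 7.48 ± 6.35 CPM in GKT136901+LPL:VLDL and 6.47 ± 4.64 CPM in LPL:VLDL libraries, with log2 ratios between −1.23 and 1.80. Single differences were 0.31 for SQLE, −0.43 for INSIG1, −0.23 for HMGCS1, 0.11 for SCD, 0.34 for FASN and 0.27 for IDI1, each no farther from 0 than about its own SE. Without experiment 2 they were 0.22 for SQLE, −0.22 for INSIG1, −0.016 for HMGCS1, 0.015 for SCD, 0.15 for FASN and 0.36 for IDI1. Over experiments 3 to 6 the mean ratio was 0.17 ± 0.16 for the sterol sum, 0.11 ± 1.38 for the fatty acid sum and −0.66 ± 1.05 for PLIN2. No gene of the set was higher or lower in all 5 experiments, beside 3.2% and 3.32% of all tested genes. Of 10 tested myeloid markers 9 were below 0, beside 2136 of all 4099 genes, with a median log2 difference of −0.41 and 0 passing the test. The experiments were split for the abundant ones. CSF1R, at −0.59, and SPP1, at −0.18, were lower in 3 of 5, while ITGB2, at −0.0055, and LAPTM5, at −0.12, were higher in 3 of 5. ITGAM, at −4.0, was lower in 5 of 5 and had 90 counts in all. The part of the myeloid markers in the PLIN2 value was not tested.

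**Figure D2:**
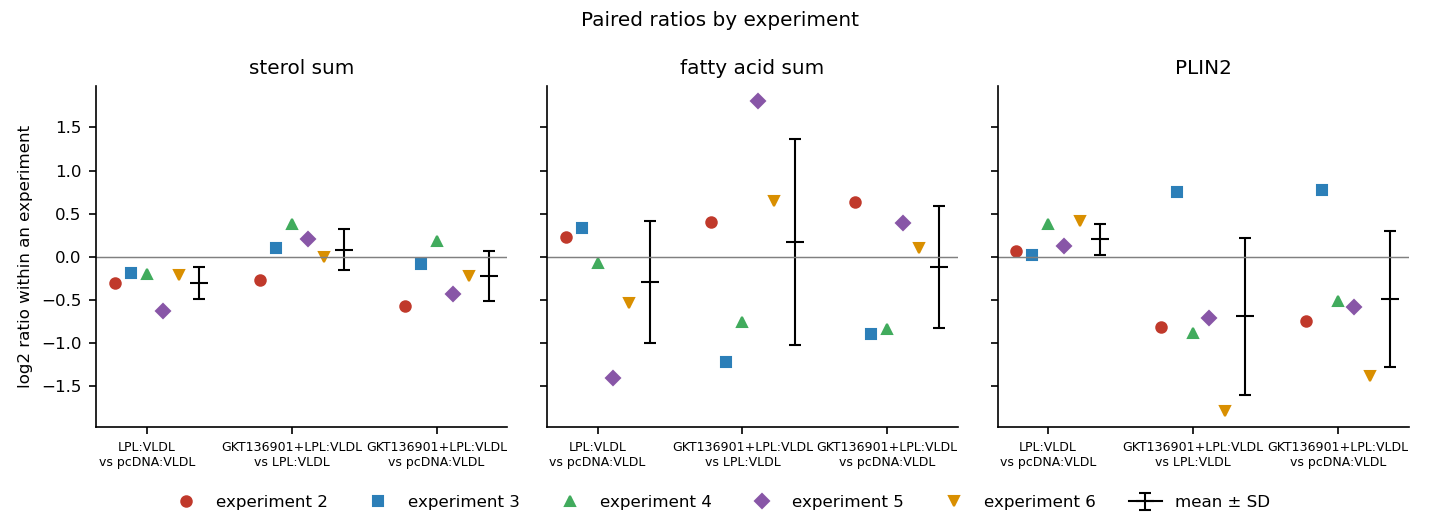
Log2 ratio within each experiment (TMM-scaled CPM plus 0.5) of the summed sterol genes, the summed fatty acid genes and PLIN2 in the 3 comparisons, with coloured points for experiments 2 to 6 and black bars for the mean and SD. The sterol ratio of LPL:VLDL over pcDNA:VLDL is below 0 in 5 of 5 experiments and the PLIN2 ratio above 0 in 5 of 5 (4 of 5 when scaled by library size alone), while PLIN2 under GKT136901 is below 0 except in experiment 3.

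GKT136901+LPL:VLDL was also set against pcDNA:VLDL, which shares its libraries with the comparisons above. INSIG1 averaged 2.71 ± 1.23 CPM in GKT136901+LPL:VLDL and 4.37 ± 1.66 CPM in pcDNA:VLDL libraries and was lower in 5 of 5 experiments, as were 3.73% of all tested genes. Its log2 difference was −0.68 ± 0.42 (adjusted p = 0.999, edgeR). The difference was −0.29 ± 0.43 without experiment 2, where the INSIG1 levels were farthest apart. Differences were −0.53 ± 0.40 for PLIN2, −0.38 ± 0.43 for SQLE and −0.33 ± 0.60 for HMGCS1. Without experiment 2 these were −0.51, −0.29 and −0.78 ± 0.55. Those of SCD, FASN and IDI1 were 0.020, 0.26 and −0.014, and without experiment 2 they were −0.20, −0.35 and 0.044. Of the 7 genes 0 passed, beside 0% of all genes, and by edgeR 0 had an unadjusted p under 0.05 without or with the block, beside 2.22% and 4.32% of all genes. By limma voom with the block 2 of 7 had one, PLIN2 the lowest, and by limma voom without the block and DESeq2 with and without it 0 of 7. None was higher in all 5 experiments, beside 3.66%. The summed sterol genes averaged 18.8 ± 1.68 CPM in GKT136901+LPL:VLDL and 22.5 ± 5.13 CPM in pcDNA:VLDL libraries, with a mean log2 ratio of −0.23 ± 0.29, below 0 in 4 of 5 experiments. The mean ratio of the fatty acid sum was −0.12 ± 0.71, above 0 in 3 of 5. Over experiments 3 to 6 the mean ratio was −0.14 ± 0.26 for the sterol sum, −0.31 ± 0.66 for the fatty acid sum and −0.43 ± 0.89 for PLIN2. All 10 tested myeloid markers were below 0 here, beside 2067 of all 4099 genes, with a median of −0.41 and 0 passing the test. Of these markers 4 were lower in 5 of 5 experiments, beside 3.73% of all tested genes, and the part of the markers was not tested.

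**Figure D3:**
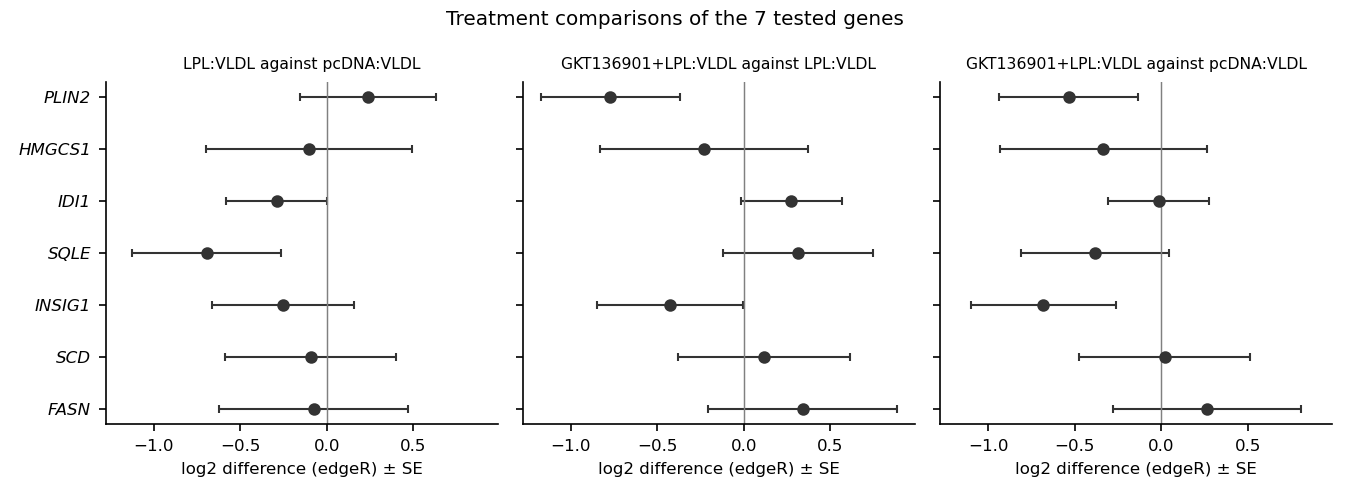
Log2 difference (edgeR) of each of the 7 tested genes in the 3 comparisons, with bars of 1 SE. No gene passed an adjusted p of 0.05, and the values farthest from 0 are PLIN2 at −0.77 in GKT136901+LPL:VLDL against LPL:VLDL and SQLE at −0.69 in LPL:VLDL against pcDNA:VLDL.

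The wider pathways gave no passing gene in these comparisons either. Of 21 genes of sterol synthesis 5 had enough counts for the test, and in LPL:VLDL against pcDNA:VLDL 4 of them were below 0 with a median log2 difference of −0.29, against 0.0097 over all genes. GGPS1, which makes the prenyl group for protein anchoring, was at −0.57 ± 0.55. Of 7 tested genes of fatty acid synthesis 4 were above 0 and 3 below, with a median of 0.14. ELOVL5, an elongase of polyunsaturated fatty acids, was lower in 5 of 5 experiments, as were 3.46% of all tested genes. It averaged 1.25 ± 0.685 CPM in LPL:VLDL and 2.54 ± 1.73 CPM in pcDNA:VLDL libraries, with a log2 difference of −1.0 ± 0.58. ELOVL1, which elongates long saturated chains, and ACLY, which supplies acetyl-CoA, were at 0.14 and 0.21.

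Under GKT136901, SREBF2, which encodes the SREBP of sterol synthesis, was higher than with LPL:VLDL alone in 5 of 5 experiments, as were 3.2% of all tested genes. It averaged 2.64 ± 1.04 CPM in GKT136901+LPL:VLDL and 1.21 ± 0.584 CPM in LPL:VLDL libraries, a log2 difference of 1.12 ± 0.53 (adjusted p = 1.00, edgeR). Of 6 tested genes of sterol sensing and uptake 4 were above 0 in that comparison, with a median of 0.58 against −0.019 over all genes. Among droplet genes 4 of 5 tested were below 0, with a median of −0.55. PLIN3, a further perilipin, was at −0.075, AUP1, a droplet-surface protein, at −0.55 and LIPA, the lysosomal acid lipase, at 0.57. VLDLR, a VLDL receptor, was at −0.19.

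Genes of fatty acid use include PPAR targets, as PLIN2 is. FABP4, a fatty acid carrier of adipocytes and macrophages, averaged 0.670 ± 0.924 CPM in GKT136901+LPL:VLDL and 2.58 ± 1.62 CPM in pcDNA:VLDL libraries, a log2 difference of −1.88 ± 0.85. LPL, the cells' own lipase mRNA, averaged 2.82 ± 1.09 CPM in GKT136901+LPL:VLDL and 5.32 ± 2.60 CPM in pcDNA:VLDL libraries, at −0.91 ± 0.44. FABP4 and LPL were lower in 5 of 5 experiments, as were 3.73% of all tested genes. NPC1, which exports cholesterol from lysosomes, was at 0.61 against pcDNA:VLDL and higher in 5 of 5 experiments, as were 3.66% of all tested genes. These genes are named because all 5 experiments went the same way. By edgeR every adjusted p of FABP4, LPL and NPC1 in this comparison was 0.999 without the block and 0.997 with it. In GKT136901+LPL:VLDL against pcDNA:VLDL 3 of 6 tested genes of fatty acid use were below 0, FABP4 among them. LPL and NPC1 belong to other lists. Against pcDNA:VLDL, ACSL1, an acyl-CoA synthetase, was at −0.36, PPARD, a PPAR, at 0.68 and ABCA1, a cholesterol exporter, at 0.86 ± 0.73. NR1H3, the receptor LXR alpha, had 97 counts in all and was not tested.

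The clearest difference within the set lay between culture experiments and not between treatments. HMGCS1, SCD and FASN were higher in each of the 3 libraries of experiment 2 than in any of the other 12, whichever lipid the cells had received. HMGCS1 ranged over 7.21 to 10.5 CPM in experiment 2 and over 0.671 to 4.46 CPM in experiments 3 to 6. SCD ranged over 7.38 to 9.001 CPM in experiment 2 and over 1.20 to 4.23 CPM in the others, and FASN over 4.31 to 9.42 CPM in experiment 2 and 0.438 to 3.60 CPM in the others. For each of the 3 genes the range of experiment 2 thus lay wholly above that of experiments 3 to 6, which was so for 3.32% of all tested genes. This comparison was chosen after the values were seen, and experiment 2 is 1 culture experiment, so its p-values speak of the 3 libraries against the spread within experiments and not of a repeated condition.

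In an edgeR fit with group and experiment, the log2 difference of experiment 2 over the mean of experiments 3 to 6 was 2.01 ± 0.38 for HMGCS1 (adjusted p = 0.000322), 1.52 ± 0.34 for SCD (adjusted p = 0.00212) and 1.59 ± 0.39 for FASN (adjusted p = 0.00601). These 3 of 7 genes were higher at an adjusted p under 0.05, beside 4.17% of all tested genes, and 0 of 7 were lower, beside 6.59%. The other 4 did not pass: SQLE was at 0.67 ± 0.37 (adjusted p = 0.280, edgeR), INSIG1 at 0.23 ± 0.38, PLIN2 at −0.41 ± 0.31 and IDI1 at −0.47 ± 0.24. Genes of the same SREBP pathway therefore did not all pass together, and IDI1 averaged 6.98 ± 1.25 CPM in experiment 2 and 9.74 ± 1.88 CPM in the others. Scaled by library size alone, the mean of IDI1 in experiment 2 was 0.967 of that in the others. Leaving out the GKT136901+LPL:VLDL library of experiment 2 left HMGCS1 past the threshold, while SCD was at 1.36 (adjusted p = 0.0556, edgeR) and FASN at 1.26 (adjusted p = 0.174, edgeR). Leaving out its LPL:VLDL library put FASN at 1.43 (adjusted p = 0.107, edgeR).

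**Figure D4:**
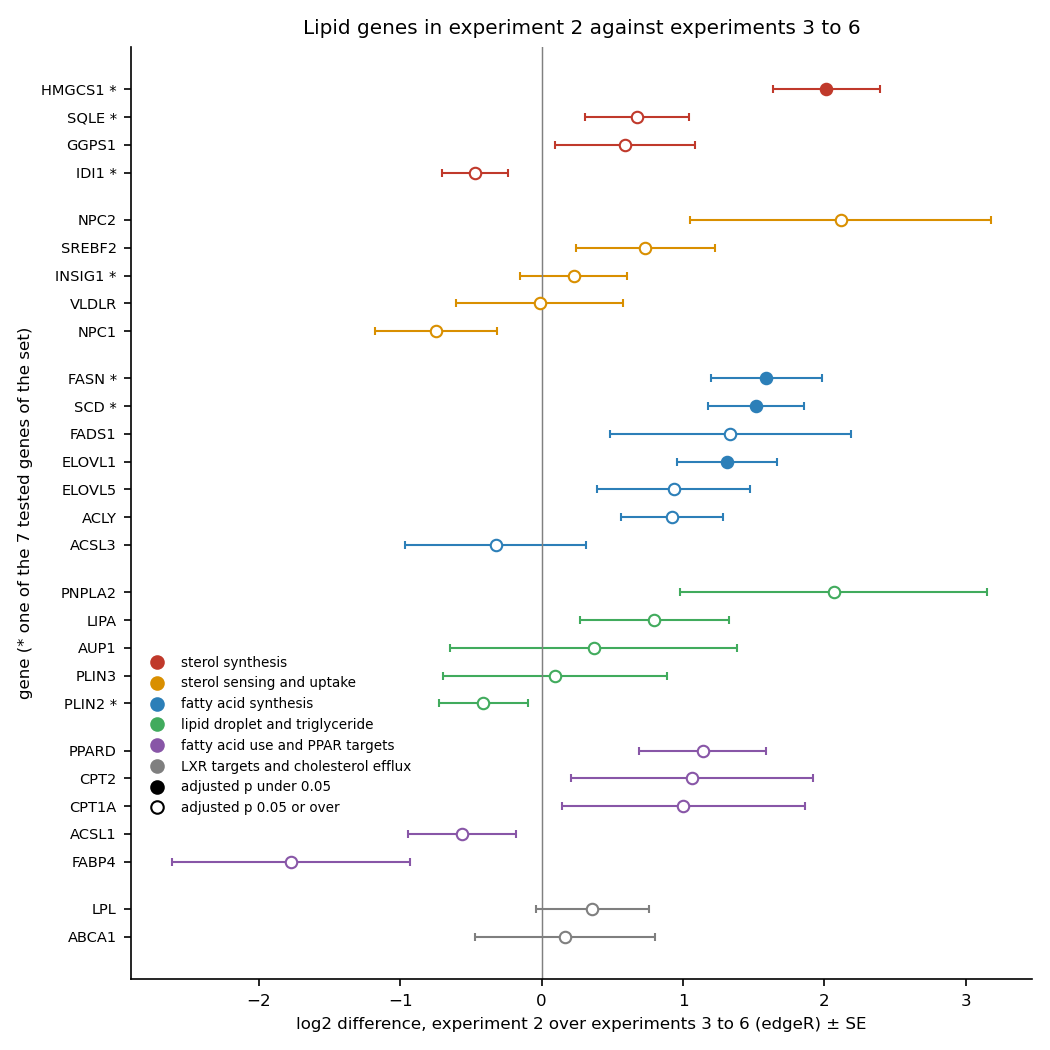
Log2 difference of experiment 2 over experiments 3 to 6 (edgeR, group and experiment in the fit, bars of 1 SE) for tested lipid genes, coloured by pathway. Filled points have an adjusted p under 0.05, and asterisks mark the 7 tested genes of the set. Filled are HMGCS1 at 2.01, FASN at 1.59, SCD at 1.52 and ELOVL1 at 1.31, while PLIN2 and IDI1 lie below 0 with the TMM scaling used here.

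The same comparison over the pathway lists gave 3 passing genes of 7 tested for fatty acid synthesis, where ELOVL1 joined SCD and FASN at 1.31 ± 0.35 (adjusted p = 0.0120, edgeR), and 6 of the 7 were above 0. For sterol synthesis 4 of 5 were above 0 and HMGCS1 alone passed. The median log2 difference was 1.31 for fatty acid synthesis and 0.67 for sterol synthesis, against 0.12 over all tested genes. ACLY was at 0.92 ± 0.36. No droplet gene, no gene of fatty acid use and neither tested LXR target passed.

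Myeloid markers and the mRNA share were also higher in experiment 2. Of 10 tested myeloid markers 9 were above 0 and 4 passed (SPP1, LAPTM5, CSF1R and ITGB2), with a median log2 difference of 1.15, while their summed level was 81.1 ± 12.6 CPM in experiment 2 and 39.4 ± 7.66 CPM in the others. Scaled to mRNA counts only (CPM of mRNA counts), HMGCS1 was 603 to 863 in experiment 2 and 62.1 to 411 in the others, SCD 613 to 763 and 107 to 416, and FASN 360 to 798 and 39.0 to 358, so the ranges still did not overlap. Summed, the 3 genes were 2.81-fold higher in experiment 2 in CPM of mRNA counts and 3.20-fold higher in TMM-scaled CPM. They were picked for this sum because they were high there, so its size follows in part from that choice. The sum of the sterol genes, HMGCS1 among them, was 1.18-fold and 1.34-fold higher in the same units. The fatty acid sum was 2.56-fold and 2.91-fold higher. The part of the myeloid markers in this difference was not tested.

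Across the 15 libraries SCD and FASN had the most similar levels of any pair in the set, with r = 0.84 on log2(CPM + 0.5), and r = 0.64 over the 12 libraries without experiment 2. HMGCS1 correlated with SCD at r = 0.71 and with FASN at r = 0.71, and without experiment 2 at 0.25 and 0.35. PLIN2 correlated with INSIG1 at r = 0.56 and with FASN at r = −0.56, and without experiment 2 at 0.60 and −0.57. These values describe libraries that share experiments and low counts. Among 3030 genes with at least 150 counts, those most like PLIN2 were TBC1D12 (r = 0.77), WDR1 (r = 0.76) and EFCAB14 (r = 0.76). Over all 3030 genes the 5th and 95th percentiles of r with PLIN2 were −0.53 and 0.48, close to its values with FASN and INSIG1.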

How the data were processed

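One table of raw counts per gene, deposited by the authors, was used. Per the submitters' processing notes, reads were trimmed with fastp 0.24.0, aligned to hg38 with STAR 2.7.11b and counted with featureCounts, whose version is 2.0.6 per the file header. The header shows counting over exons by gene in the RefSeq annotation, and no setting for strand, for reads with several alignments or for shared exons. A fragment that maps to more than 1 place, such as a gene and its scaffold copy, was therefore not counted. Nor was a fragment that overlaps exons of more than 1 gene. The values are counts of short fragments in small RNA libraries, and total RNA levels of these mRNAs were not measured.

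From the deposited counts, edgeR 4.0.16 (R 4.3.3) gave the main test: TMM factors, a filter on expression (minimum count 10, minimum total 15, 4099 genes kept, holding 99.664% of counts), and a quasi-likelihood F test over 3 groups with Benjamini-Hochberg adjustment over all 4099 genes. DESeq2 1.42.0 and limma 3.58.1 (voom) were alternatives, as were the replicate block, other scalings and filters, and leaving out libraries. The test script was checked on simulated counts. The labels' batch field ties equal numbers to 1 experiment, so the numbers pair the libraries; same-experiment libraries correlated with a median r of 0.131 in their deviations from group means, and others with −0.081. Library pairs of a group differed by more than sampling noise. The genes and the pathway lists were chosen with earlier results of these data known. All 8 genes are named. Of each list the 3 genes with the highest counts are named, with any gene past the threshold, and any of at least 150 counts that differed the same way in 5 of 5 experiments. Some genes that these rules name are not reported here. Ratios within an experiment use a pseudocount of 0.5 CPM.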

Additional observations from a re-analysis of the deposited data

Results flagged for a closer look

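In 27 sets of 5 libraries (a gene or sum in 1 group), the highest or lowest library was set against its group with Dixon's 95% critical value of 0.71 for the gap to the nearest library over the range. Of the 27 sets 4 stood apart, all of them with the experiment 2 library highest. Chance flags about 1 in 20 of independent sets, but these sets are not independent. The sums contain the single genes, and all flags except that of pcDNA:VLDL come from 1 library. The count of 4 can therefore not be set against that rate. With GKT136901, the summed fatty acid genes SCD and FASN were 18.42 CPM in experiment 2, and the next library was at 6.97 CPM. In pcDNA:VLDL the same sum was 11.69 CPM in experiment 2, and the next library was at 6.997 CPM. HMGCS1 was 8.07 CPM with GKT136901 in experiment 2, and the next was at 2.82 CPM. FASN was 9.415 CPM in that library, and the next was at 2.74 CPM. The treatment differences of these genes, and the paired ratios of the fatty acid sum, are given without experiment 2 in the report.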

How the results depend on the processing

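None of the 7 tested genes passed in any treatment comparison under any alternative run: the replicate block, DESeq2, limma voom, other scalings and filters, each library left out, or all of experiment 2 left out (added after seeing the data). With the replicate block (experiment paired) 1 gene of the whole table passed in LPL:VLDL against pcDNA:VLDL, beside 0 without it; there DESeq2 with the block gave 1, limma voom with the block 4, and blocked fits without a replicate 0 to 2. In GKT136901+LPL:VLDL against pcDNA:VLDL, DESeq2 with the block gave 2 and limma voom with the block 3. The block changed no call of a gene of the set. For HMGCS1, SCD, FASN and IDI1 the sign of a difference turned under some settings. In GKT136901+LPL:VLDL against pcDNA:VLDL, SCD was −0.040 with the block, −0.047 by library size, −0.036 without a filter, −0.0067 with a stricter one, −0.039 by DESeq2 with the block, −0.10 by voom, −0.032 by voom with the block and −0.20 without experiment 2; FASN was −0.35 and IDI1 0.044 without experiment 2. With 1 library left out, log2 differences of LPL:VLDL over pcDNA:VLDL ranged from −1.07 to 0.22 for HMGCS1, −0.54 to 0.26 for SCD and −0.63 to 0.20 for FASN. Those of GKT136901+LPL:VLDL over LPL:VLDL ranged from −0.98 to 0.72, −0.43 to 0.55 and −0.40 to 0.88 for the same genes. Over pcDNA:VLDL they ranged from −0.53 to 0.37 for SCD, −0.49 to 0.45 for FASN and −0.17 to 0.13 for IDI1. In blocked fits without a replicate, signs turned for LPL:VLDL over pcDNA:VLDL at 0.020 (HMGCS1), 0.024 (SCD) and 0.089 (FASN). They turned for GKT136901+LPL:VLDL over LPL:VLDL at 0.19 (HMGCS1) and −0.33 and −0.020 (SCD). They turned over pcDNA:VLDL at −0.17 and −0.35 (SCD), −0.26 and −0.10 (FASN) and 0.029 and 0.053 (IDI1). The cause was not tested. For experiment 2 against experiments 3 to 6, 1 to 3 genes of the set passed with a library of experiment 2 left out, INSIG1 ranged from −0.32 to 0.59, and library size alone put PLIN2 at 0.025 and moved the median of all genes to 0.55. With counts of 4 to 121 per library for most of these genes, even the largest treatment difference of the set, PLIN2 at −0.77 ± 0.40, did not pass at this depth and spread.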
